A study of Arabidopsis thaliana with 18 samples.

Results

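The suberin synthesis and export genes described here are 10 genes of Arabidopsis thaliana: the acyltransferase GPAT5 (AT3G11430), the fatty acyl reductases FAR1 (AT5G22500), FAR4 (AT3G44540) and FAR5 (AT3G44550), the feruloyl transferase ASFT (AT5G41040), the cytochrome P450 hydroxylases CYP86A1 (AT5G58860) and CYP86B1 (AT5G23190), and the half-transporters ABCG2 (AT2G37360), ABCG6 (AT5G13580) and ABCG20 (AT3G53510). They were chosen by name and locus, with no measured value in the rule, from 25537 genes in the deposited table. Earlier results of these data were known when they were chosen. All 10 were found, and all 10 were among the 19981 genes that passed the filter on low counts.

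The roots came from untreated seedlings, 4 days old, and their poly(A) RNA was sequenced in 18 libraries of 6 genotypes with 3 libraries each. The double mutants were atm-2 rab8d-2, the pair of sog1-1 with rab8d-2, the pair labelled nac044-1 rab8d-2, and nac085-1 with the same rab8d-2 allele. The other groups were the single mutant rab8d-2 and wild type (WT, Col). All 4 double mutants carry rab8d-2 as well, and libraries with the second mutation alone were not analysed here, so each double mutant was set against rab8d-2 and then against WT. RAB8D encodes the plastid translation elongation factor EF-Tu, ATM is a kinase activated by DNA breaks, SOG1 is the transcription factor downstream of it, and NAC044 and NAC085 are related transcription factors that act below SOG1.

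The mutated genes gave a check of the labels. RAB8D was lower in rab8d-2 than in WT (log2 fold change -2.98 ± 0.06, SE), and ATM and NAC085 were lower in their own double mutants than in rab8d-2 (-3.28 ± 0.07 and -0.92 ± 0.26). RAB8D was below WT in every double mutant too (-2.35 to -2.77), but higher there than in rab8d-2. It was higher by 0.63 ± 0.08 in atm-2 rab8d-2 and by 0.43 ± 0.08 in nac085-1 rab8d-2. The rise was 0.36 ± 0.08 in the samples labelled nac044-1 rab8d-2 and 0.22 ± 0.08 in sog1-1 rab8d-2. The part of these RAB8D differences in the suberin results was not tested. NAC085 does not single out its label: it was lower than rab8d-2 in sog1-1 rab8d-2 too (-0.70 ± 0.26), and nac085-1 rab8d-2 was not called against sog1-1 rab8d-2, atm-2 rab8d-2 or WT (adjusted p = 0.556, 0.0899 and 0.172). For rab8d-2, one label field gives WT as the genotype while the titles give rab8d-2, and the titles were followed. SOG1 differed by 0.23 ± 0.05, which checks nothing, because RNA level need not change with this allele. NAC044 RNA was higher by 3.04 ± 0.04 in the samples labelled nac044-1 rab8d-2 than in rab8d-2. That goes against what the label would give for a loss of RNA, so these are called by their label throughout. Without these 3 libraries, 1 call of the 10 genes in the other comparisons changed, that of ABCG6 in nac085-1 rab8d-2 against atm-2 rab8d-2. Estimated counts summed to 20103600 to 20471200 per library. The summed level of 10 endodermis markers was 605.2 to 885.8 TPM (transcript abundance per length, scaled to a fixed sum) over all libraries, none of them at 0, while 3 shoot markers summed to 1.97 to 7.40 TPM.

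Suberin is a polyester of fatty acid derivatives, glycerol and ferulate that is laid down as lamellae on the inner face of the wall. In young roots it forms in the differentiated endodermis, after the Casparian strip, where it limits passage between the apoplast and the endodermal cell. CYP86A1 and CYP86B1 oxidise the end of the fatty acid chain, the FAR enzymes make primary alcohols, GPAT5 joins acyl chains to glycerol, ASFT attaches ferulate, and the ABCG half-transporters are needed for export of the monomers. MYB transcription factors turn these genes on, and abscisic acid raises suberin in the endodermis.

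The sequence just before the gene start is shown for 4 genes that stand for the patterns found: GPAT5 and FAR4 were lower in rab8d-2 and stayed below WT in every double mutant, FAR1 was the only one of the 10 that was higher in rab8d-2, and ASFT passed the WT level in 3 double mutants. Each is 250 bases that end at the base before the annotated gene start, 5′ to 3′ on the gene's strand, from RefSeq build TAIR10.1; the build behind the deposited counts was not given in the sources used here. Capitals mark an ABRE core (ACGTG), a W-box core (TTGAC) and an AC element, for which the letters ACCTACC were searched, as were ACCAACC and, as the last form, ACCTAAC, each searched on both strands.
GPAT5, chr3:3595444-3595693, plus strand: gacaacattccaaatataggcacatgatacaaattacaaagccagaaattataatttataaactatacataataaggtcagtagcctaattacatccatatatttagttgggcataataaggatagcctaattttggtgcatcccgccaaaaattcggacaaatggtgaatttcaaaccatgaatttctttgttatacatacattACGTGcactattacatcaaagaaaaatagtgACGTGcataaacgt
FAR4, chr3:16123176-16123425, plus strand: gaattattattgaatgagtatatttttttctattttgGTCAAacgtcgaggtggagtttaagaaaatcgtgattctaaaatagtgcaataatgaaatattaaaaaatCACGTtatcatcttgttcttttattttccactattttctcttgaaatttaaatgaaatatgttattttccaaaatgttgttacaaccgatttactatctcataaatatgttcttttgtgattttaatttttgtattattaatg
FAR1, chr5:7470078-7470327, plus strand: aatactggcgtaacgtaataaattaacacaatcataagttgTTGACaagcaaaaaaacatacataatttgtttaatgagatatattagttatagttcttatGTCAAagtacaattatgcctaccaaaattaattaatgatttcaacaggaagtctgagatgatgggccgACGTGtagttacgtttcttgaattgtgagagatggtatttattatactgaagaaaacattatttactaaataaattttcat
ASFT, chr5:16431054-16431303, plus strand: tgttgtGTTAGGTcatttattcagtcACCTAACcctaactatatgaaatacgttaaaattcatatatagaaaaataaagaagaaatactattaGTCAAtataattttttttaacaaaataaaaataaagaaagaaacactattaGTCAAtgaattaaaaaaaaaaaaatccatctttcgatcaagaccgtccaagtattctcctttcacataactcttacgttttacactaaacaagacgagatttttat

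The ABRE core, the letters bound by abscisic acid response factors, began 45 and 14 bases before the start of GPAT5, 143 before FAR4 and 81 before FAR1. It was found in these 3 of the 10 genes, and in 22.9% of 27443 promoters of the same length. AC elements, known from promoters of phenylpropanoid genes, lay 244 and 224 bases before ASFT and 155 bases before ABCG2, so in 2 of 10, and in 6.12% of all promoters. The W-box core was in 8 of 10 and in 44.9% of all promoters, and the MYB core CNGTTA in 1 of 10, FAR5, and in 26.6%. No motif overlapped another here, and a match describes letters only.

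In WT roots the 10 genes spanned a wide range of levels per length. ASFT had the highest at 176.3 ± 4.57 TPM (SD, n = 3), CYP86A1 came next at 109.3 ± 2.44 TPM, and FAR1 was lowest at 5.58 ± 0.380 TPM. The others lay between 19.3 ± 0.133 TPM for ABCG2 and 63.5 ± 0.870 TPM for ABCG6. Summed over the 10 genes, the level was 257.0 to 264.9 TPM in rab8d-2 libraries, against 532.3 to 542.3 TPM in WT libraries.

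rab8d-2 against WT asks what the rab8d-2 mutation changed. Suberin gene RNA was lower in rab8d-2 for 9 of the 10 genes and higher for FAR1, with the 3 libraries of one genotype all on one side of the 3 of the other for each gene, as in 67.3% of all genes tested. Over all genes tested, 32.9% were lower and 31.7% higher at an adjusted p under 0.05 in edgeR's quasi-likelihood test with Benjamini-Hochberg adjustment. By size, 8 of 10 suberin genes were lower by at least 1.5-fold, against 12.4% of all genes. Their median log2 fold change was -1.38, beside 0.00 over all genes. Fewer endodermal cells and less RNA per cell cannot be told apart in whole roots.

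The transporters included the member that fell most. ABCG6 had 15.3, 16.3 and 15.6 TPM in rab8d-2, against 64.3, 63.5 and 62.6 TPM in WT. Every rab8d-2 library was far below every WT library, with a log2 fold change of -2.07 ± 0.05 (adjusted p = 9.47e-37), or 4.19-fold lower. ABCG20 had 8.48, 7.98 and 7.85 TPM in rab8d-2, against 19.9, 20.04 and 20.4 TPM in WT, a change of -1.36 ± 0.06 (adjusted p = 1.49e-25). ABCG2 fell less, with 13.4, 11.2 and 13.2 TPM in rab8d-2, against 19.5, 19.2 and 19.3 TPM in WT (-0.67 ± 0.06, adjusted p = 1.94e-14). The 3 half-transporters thus changed in one direction, by 1.59-fold to 4.19-fold.

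Among the hydroxylases, CYP86B1, which acts on very long chains, had 15.7, 15.6 and 14.4 TPM in rab8d-2, against 52.0, 50.1 and 46.0 TPM in WT, and its change of -1.75 ± 0.05 (adjusted p = 6.35e-33) was the second largest of the 10. CYP86A1, which acts on shorter chains, had 43.8, 41.0 and 44.5 TPM in rab8d-2, against 109, 107 and 112 TPM in WT (-1.39 ± 0.04, adjusted p = 3.28e-33). In both genes the 2 sets of libraries lay far apart. GPAT5, whose product makes the acylglycerols of the polymer, had 13.7, 13.8 and 12.4 TPM in rab8d-2, against 37.2, 35.4 and 34.6 TPM in WT (-1.48 ± 0.05, adjusted p = 5.83e-28). ASFT, which adds the aromatic part, had 123, 122 and 122 TPM in rab8d-2, against 172, 175 and 181 TPM in WT. Its libraries were separate too, but its fall was the smallest of the 9 (-0.58 ± 0.03, adjusted p = 1.05e-22).

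The fatty acyl reductases split. FAR4 had 12.4, 11.4 and 12.7 TPM in rab8d-2, against 32.4, 29.99 and 33.3 TPM in WT (-1.42 ± 0.05, adjusted p = 2.47e-28), and its neighbour on chromosome 3, FAR5, had 11.7, 11.01 and 9.92 TPM in rab8d-2, against 25.9, 27.0 and 27.5 TPM in WT (-1.31 ± 0.06, adjusted p = 2.57e-24). FAR1, the third reductase known to make root suberin alcohols, went the other way: 7.82, 7.24 and 7.20 TPM in rab8d-2, against 5.90, 5.16 and 5.68 TPM in WT (0.36 ± 0.09, adjusted p = 0.000767). All 3 rab8d-2 libraries were above all 3 WT libraries for FAR1, by 1.29-fold on average. FAR1 also had the fewest counts of the 10, 132 to 287 in a library, and the largest standard error.

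**Figure D1:**
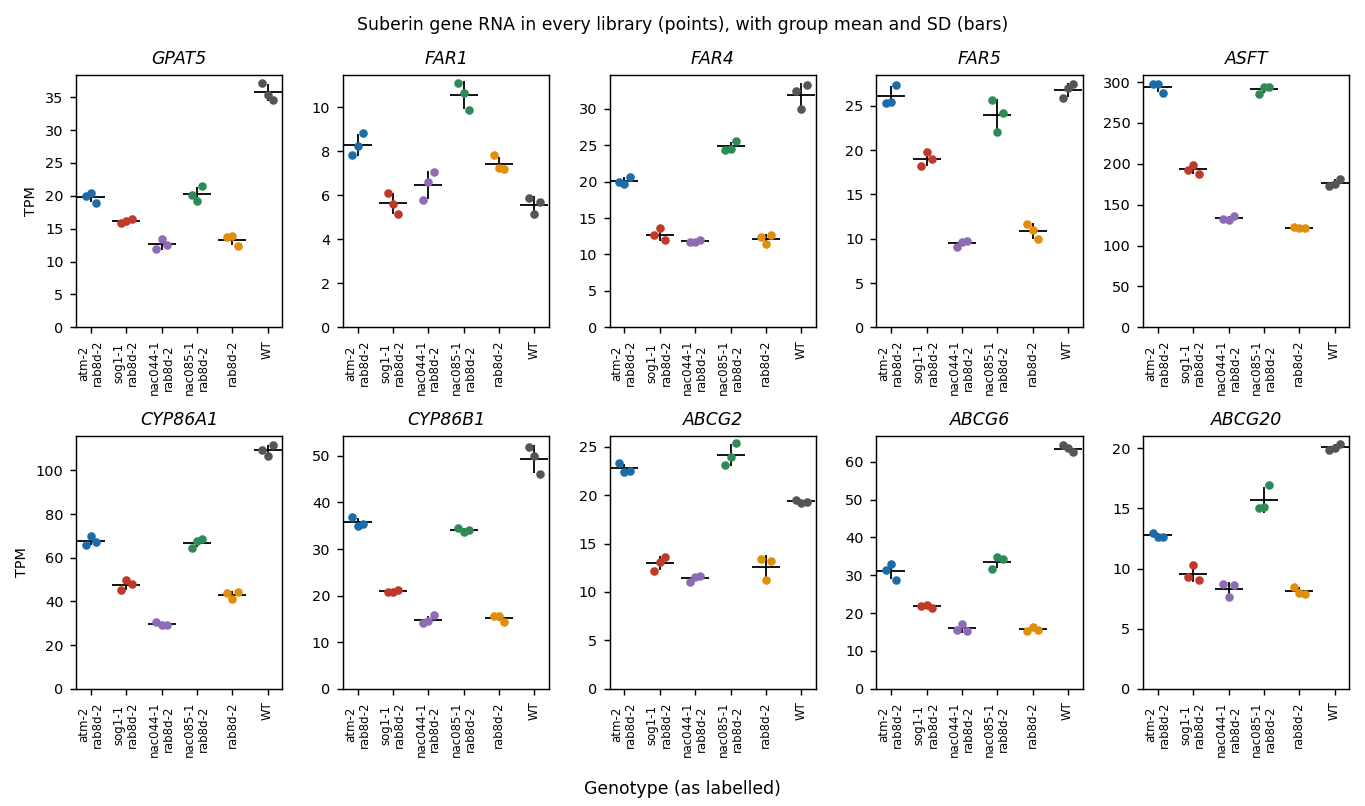
RNA level in TPM (vertical axis, from 0) of each suberin gene in the 18 libraries (points), with the mean and SD of each genotype (bars), in the order of the 4 double mutants, rab8d-2 and WT. WT was the highest genotype for 7 of 10 genes, and rab8d-2 and the samples labelled nac044-1 rab8d-2 were the lowest pair for 9 of them.

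Adding atm-2 to rab8d-2 asks whether ATM is needed for these changes. In atm-2 rab8d-2, 9 of 10 suberin genes rose over rab8d-2, all 9 by at least 1.5-fold, and none fell. Among all genes tested, 31.7% were higher in this comparison and 29.9% lower, and 10.4% were higher by at least 1.5-fold. The median change was 0.79, beside 0.01 over all genes. FAR1 was the gene not called: it had 7.83, 8.27 and 8.83 TPM in atm-2 rab8d-2, against 7.82, 7.24 and 7.20 TPM in rab8d-2, a difference of 0.17 ± 0.09 (adjusted p = 0.0801) with every double mutant library just above every rab8d-2 library.

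ASFT and FAR5 rose most in atm-2 rab8d-2. ASFT reached 297, 298 and 286 TPM in atm-2 rab8d-2, against 123, 122 and 122 TPM in rab8d-2 (1.28 ± 0.03, adjusted p = 2.35e-37). FAR5 reached 25.4, 25.5 and 27.4 TPM in atm-2 rab8d-2, against 11.7, 11.01 and 9.92 TPM in rab8d-2 (1.28 ± 0.06, adjusted p = 3.77e-24). Both were 2.43-fold higher, and no library of one genotype reached the range of the other. CYP86B1 rose by a similar amount, with 36.9, 35.0 and 35.4 TPM in atm-2 rab8d-2, against 15.7, 15.6 and 14.4 TPM in rab8d-2 (1.24 ± 0.05, adjusted p = 1.52e-26). Its libraries in atm-2 rab8d-2 stayed below WT.

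The transporters rose together in atm-2 rab8d-2. ABCG6 had 31.4, 33.1 and 28.9 TPM in atm-2 rab8d-2, against 15.3, 16.3 and 15.6 TPM in rab8d-2 (1.00 ± 0.05, adjusted p = 9.65e-23). ABCG2 had 23.3, 22.4 and 22.5 TPM in atm-2 rab8d-2, against 13.4, 11.2 and 13.2 TPM in rab8d-2 (0.87 ± 0.06, adjusted p = 6.96e-19), and ABCG20 had 13.0, 12.7 and 12.7 TPM, against 8.48, 7.98 and 7.85 TPM in rab8d-2 (0.67 ± 0.06, adjusted p = 3.5e-13). For all 3, each atm-2 rab8d-2 library was above each rab8d-2 library, which held for 33.5% of all genes tested. CYP86A1 had 66.1, 69.9 and 67.3 TPM in atm-2 rab8d-2, against 43.8, 41.0 and 44.5 TPM in rab8d-2 (0.67 ± 0.04, adjusted p = 6.43e-20), and FAR4 had 19.96, 19.7 and 20.6 TPM, against 12.4, 11.4 and 12.7 TPM in rab8d-2 (0.72 ± 0.05, adjusted p = 3.89e-16). GPAT5 rose least of the 9, with 20.03, 20.4 and 19.0 TPM in atm-2 rab8d-2, against 13.7, 13.8 and 12.4 TPM in rab8d-2 (0.59 ± 0.06, adjusted p = 6.12e-12), and its groups did not overlap either.

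In nac085-1 rab8d-2 all 10 genes rose over rab8d-2, 9 of them by at least 1.5-fold, where 31.8% and 11.4% of all genes did so and 31.7% fell. The median was 0.99, beside -0.01 over all genes. FAR1 rose here, to 11.1, 10.7 and 9.88 TPM in nac085-1 rab8d-2, against 7.82, 7.24 and 7.20 TPM in rab8d-2 (0.51 ± 0.08, adjusted p = 4.57e-07). ASFT again rose most, to 285, 294 and 294 TPM (1.26 ± 0.03, adjusted p = 6.3e-37). All 3 of its libraries there were above every WT library.

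ABCG6 had 31.6, 34.8 and 34.3 TPM in nac085-1 rab8d-2, against 15.3, 16.3 and 15.6 TPM in rab8d-2 (1.10 ± 0.05, adjusted p = 1.65e-24). FAR4 had 24.4, 24.5 and 25.6 TPM in nac085-1 rab8d-2, against 12.4, 11.4 and 12.7 TPM in rab8d-2 (1.02 ± 0.05, adjusted p = 2.86e-22). The transporter ABCG20 averaged 15.7 ± 1.10 TPM in nac085-1 rab8d-2 (SD, n = 3), with libraries from 15.01 TPM up, a log2 difference to rab8d-2 of 0.96 ± 0.06 (adjusted p = 4.58e-19), and ABCG2 had 23.1, 23.9 and 25.4 TPM (0.95 ± 0.05, adjusted p = 2.41e-20). For all 10 genes, the nac085-1 rab8d-2 libraries lay wholly above the rab8d-2 libraries, which held for 33.2% of all genes tested. FAR5 had 25.6, 22.1 and 24.2 TPM in nac085-1 rab8d-2, against 11.7, 11.01 and 9.92 TPM in rab8d-2 (1.14 ± 0.06, adjusted p = 9.34e-22). CYP86B1 had 34.5, 33.6 and 34.0 TPM (1.17 ± 0.05, adjusted p = 3.66e-25), more of a rise than that of CYP86A1, which had 64.4, 67.9 and 68.5 TPM (0.64 ± 0.04, adjusted p = 3.25e-19). GPAT5 had 20.1, 19.2 and 21.4 TPM in nac085-1 rab8d-2 (0.61 ± 0.06, adjusted p = 1.57e-12), and FAR1 was the 1 gene whose rise was smaller.

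In sog1-1 rab8d-2 the rises were smaller: 8 of 10 genes were higher than in rab8d-2 and FAR1 was lower, but only ASFT and FAR5 were higher by at least 1.5-fold. Of all genes tested, 28.7% were higher, 26.0% lower and 8.60% higher by at least 1.5-fold. The median was 0.34, beside -0.01 over all genes. FAR5 had 18.2, 19.8 and 18.9 TPM in sog1-1 rab8d-2, against 11.7, 11.01 and 9.92 TPM in rab8d-2 (0.88 ± 0.06, adjusted p = 1.57e-16), and ASFT had 193, 198 and 188 TPM in sog1-1 rab8d-2, against 123, 122 and 122 TPM in rab8d-2 (0.74 ± 0.03, adjusted p = 1.96e-26). In both genes the libraries of the 2 genotypes were apart. The changes of GPAT5, CYP86A1, CYP86B1, ABCG6 and ABCG20 were 0.22 to 0.55, each with separate libraries. Of all genes tested, 30.8% had sog1-1 rab8d-2 libraries wholly above the rab8d-2 libraries. ABCG6 had 22.0, 22.2 and 21.4 TPM in sog1-1 rab8d-2, against 15.3, 16.3 and 15.6 TPM in rab8d-2 (0.55 ± 0.05, adjusted p = 2.19e-12). CYP86B1 had 20.8, 20.8 and 21.1 TPM in sog1-1 rab8d-2, against 15.7, 15.6 and 14.4 TPM in rab8d-2 (0.53 ± 0.05, adjusted p = 1.61e-11). GPAT5 had 15.9, 16.1 and 16.5 TPM in sog1-1 rab8d-2, against 13.7, 13.8 and 12.4 TPM in rab8d-2 (0.36 ± 0.06, adjusted p = 2.97e-06). For all 3, these libraries lay below every WT library. ABCG20 had 9.33, 10.2 and 9.01 TPM in sog1-1 rab8d-2 (0.31 ± 0.07, adjusted p = 9.38e-05), and CYP86A1 had 45.1, 49.9 and 47.8 TPM (0.22 ± 0.04, adjusted p = 1.61e-05).

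FAR1 was lower, with 6.13, 5.61 and 5.17 TPM in sog1-1 rab8d-2, against 7.82, 7.24 and 7.20 TPM in rab8d-2 (-0.32 ± 0.09, adjusted p = 0.00315), all libraries below. The call for FAR4 was marginal. It had 12.6, 13.6 and 11.9 TPM in sog1-1 rab8d-2, against 12.4, 11.4 and 12.7 TPM in rab8d-2 (0.14 ± 0.06, adjusted p = 0.0399), with overlapping libraries, and was lost by DESeq2 (adjusted p = 0.0959). It was also lost without rab8d-2 replicate 1 or 2 or sog1-1 rab8d-2 replicate 1 or 2. ABCG2 was not called at 0.12 ± 0.06 (adjusted p = 0.0919), and was called without replicate 1 of either genotype.

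The samples labelled nac044-1 rab8d-2 stayed close to rab8d-2. No suberin gene differed by 1.5-fold (2.84% of all genes were that much higher and 3.85% that much lower), 7 were not called, ASFT was higher, and CYP86A1 and FAR5 were lower, where 24.3% of all genes were higher and 18.6% lower. Of the genes called, 56.6% were higher, and 44.5% under upper quartile scaling. The median of the 10 was -0.06, beside 0.02 over all genes. CYP86A1 had the clearest difference, with 30.5, 29.4 and 29.4 TPM in the samples labelled nac044-1 rab8d-2, against 43.8, 41.0 and 44.5 TPM in rab8d-2 (-0.53 ± 0.05, adjusted p = 1.06e-13), all 3 libraries below. ASFT had 132, 132 and 136 TPM in the samples labelled nac044-1 rab8d-2, against 123, 122 and 122 TPM in rab8d-2 (0.13 ± 0.03, adjusted p = 0.000302). FAR5 was lower by little (-0.20 ± 0.07, adjusted p = 0.0240), and that call was lost by DESeq2 (adjusted p = 0.0613) and without rab8d-2 replicate 1 or 2 or replicate 1 labelled nac044-1 rab8d-2. FAR1 and ABCG2 were not called (-0.19 ± 0.09 and -0.13 ± 0.06), but FAR1 was called lower without replicate 3 labelled nac044-1 rab8d-2, ABCG2 without rab8d-2 replicate 2, and both under upper quartile scaling. GPAT5 had 11.8, 13.5 and 12.6 TPM in the samples labelled nac044-1 rab8d-2, against 13.7, 13.8 and 12.4 TPM in rab8d-2 (-0.07 ± 0.07, adjusted p = 0.442), and ABCG6 had 15.5, 17.2 and 15.2 TPM, against 15.3, 16.3 and 15.6 TPM in rab8d-2 (0.03 ± 0.06, adjusted p = 0.746). For both, as for FAR4, CYP86B1, ABCG2 and ABCG20, the libraries overlapped. Of all 19981 genes tested, 8579 were called in this comparison, and 50.9% had libraries wholly apart by normalised counts.

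**Figure D2:**
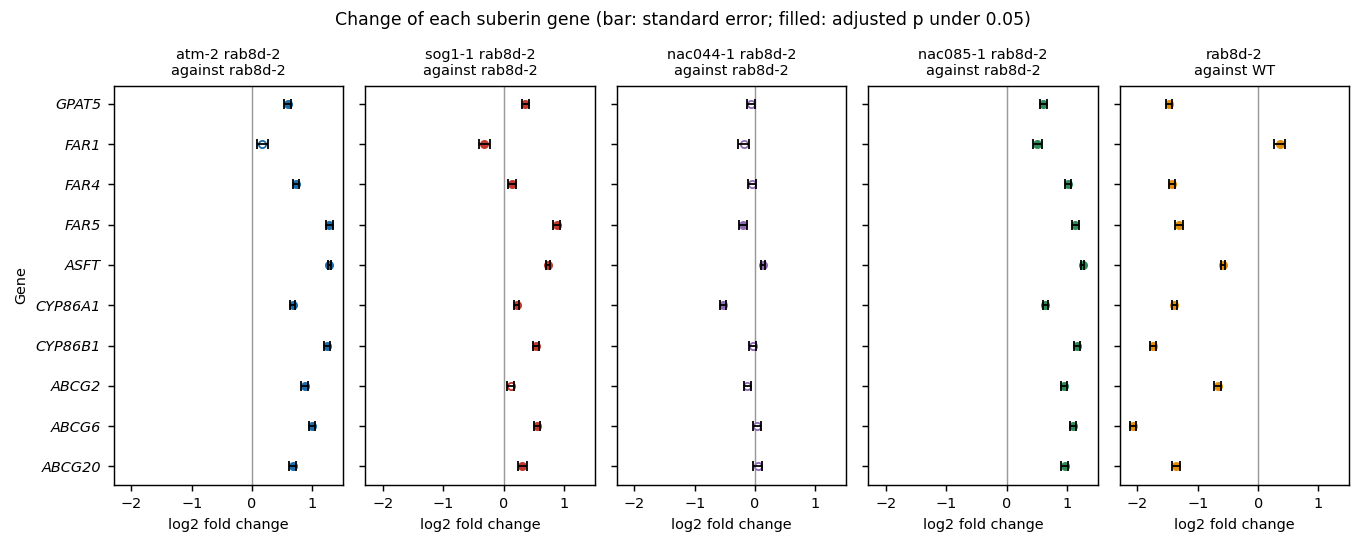
Log2 fold change of each suberin gene (horizontal axis) with its standard error (bars) in each double mutant against rab8d-2 and in rab8d-2 against WT; filled points have an adjusted p under 0.05. The points lie right of 0 for all 10 genes in atm-2 rab8d-2 and nac085-1 rab8d-2, and left of 0 for 9 of 10 in rab8d-2 against WT.

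Set against WT, the double mutants kept different distances gene by gene. The share of the WT level (normalised counts, median of the 10 genes) was 66.2% in atm-2 rab8d-2, 47.2% in sog1-1 rab8d-2, 35.7% in the samples labelled nac044-1 rab8d-2, 75.9% in nac085-1 rab8d-2 and 38.5% in rab8d-2. In atm-2 rab8d-2, 6 genes were lower than WT, 3 higher and 1, FAR5, not called, where 33.5% of all genes were lower and 35.1% higher. In sog1-1 rab8d-2, 8 were lower, ASFT was higher and FAR1 was not called (all genes: 29.2% lower, 28.8% higher). In the samples labelled nac044-1 rab8d-2, 9 were lower, none was higher and FAR1 was not called (28.8% of all genes lower, 29.3% higher). FAR1 was called higher there without replicate 1 so labelled (0.25, adjusted p = 0.0421). In nac085-1 rab8d-2, 7 were lower and 3 higher (32.4% of all genes lower, 32.5% higher).

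ABCG6 stayed furthest below WT of the 10 genes in all 4 double mutants. Its normalised counts were 47.7% of WT in atm-2 rab8d-2 (-1.07 ± 0.04, adjusted p = 8.34e-28), 35.0% in sog1-1 rab8d-2, 24.3% in the samples labelled nac044-1 rab8d-2 and 51.2% in nac085-1 rab8d-2 (-0.96 ± 0.04, adjusted p = 3.99e-26). In each of them all 3 libraries lay below all 3 WT libraries, as they did for 30.6% to 34.7% of all genes tested. FAR5 came closest to WT in atm-2 rab8d-2, with 25.4, 25.5 and 27.4 TPM there, against 25.9, 27.0 and 27.5 TPM in WT (-0.03 ± 0.05, adjusted p = 0.576), and these libraries overlapped.

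ASFT went past WT. It averaged 293.8 ± 6.45 TPM in atm-2 rab8d-2, 193.0 ± 5.21 in sog1-1 rab8d-2 and 291.1 ± 5.10 in nac085-1 rab8d-2, against 176.3 ± 4.57 in WT (SD, n = 3 each). Those differences were 0.70 ± 0.03, 0.15 ± 0.03 and 0.68 ± 0.03 on the log2 scale, each with all 3 double mutant libraries above WT (highest adjusted p = 5.5e-06). In these comparisons, 30.7% to 35.7% of all genes tested had libraries wholly above WT. ABCG2 was above WT in atm-2 rab8d-2 and nac085-1 rab8d-2 (0.20 ± 0.05 and 0.27 ± 0.05), and FAR1 in the same genotypes (0.53 ± 0.09 and 0.88 ± 0.09). The summed level of the 10 genes was 528.9 to 544.4 TPM in atm-2 rab8d-2 and 535.1 to 554.3 TPM in nac085-1 rab8d-2, against 532.3 to 542.3 TPM in WT. These sums were near each other while their make-up differed, ASFT taking a larger part and the other members, on the whole, a smaller part in the double mutants.

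The double mutants were also set against each other. In sog1-1 rab8d-2 all 10 genes were lower than in atm-2 rab8d-2, with log2 fold changes of -0.23 for GPAT5 to -0.75 for ABCG2, where 30.0% of all genes were lower. All 10 were lower in the samples labelled nac044-1 rab8d-2 than in atm-2 rab8d-2 as well (-0.36 to -1.48; 33.9% of all genes lower), and 9 were lower than in sog1-1 rab8d-2 (26.1% of all genes lower). Of these 9, FAR4 was no longer called without sog1-1 rab8d-2 replicate 2 (adjusted p = 0.0675). In nac085-1 rab8d-2 all 10 genes were higher than in sog1-1 rab8d-2 (0.25 to 0.88; 28.0% of all genes higher). They were all higher than in the samples labelled nac044-1 rab8d-2 too, by 0.68 to 1.34. Of all genes tested, 29.3% were higher in that comparison.

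Of the 6 comparisons between double mutants, nac085-1 rab8d-2 against atm-2 rab8d-2 had the fewest of the 10 genes called. It also had the fewest of all 19981 genes called, 9647, where the other comparisons between double mutants had 10429 to 13144. FAR1, FAR4 and ABCG20 were higher in nac085-1 rab8d-2 (0.34 ± 0.08, 0.30 ± 0.05 and 0.29 ± 0.05), FAR5 was lower (-0.14 ± 0.05, adjusted p = 0.0176), and 6 were not called, where 24.3% of all genes were higher and 24.0% lower. ABCG6 had 31.6, 34.8 and 34.3 TPM in nac085-1 rab8d-2, against 31.4, 33.1 and 28.9 TPM in atm-2 rab8d-2 (0.10 ± 0.04, adjusted p = 0.0513), and the libraries overlapped. The FAR5 call was lost by DESeq2 (adjusted p = 0.111), without atm-2 rab8d-2 replicate 3 and without nac085-1 rab8d-2 replicate 2. ABCG6 was called higher without atm-2 rab8d-2 replicate 2, nac085-1 rab8d-2 replicate 1, sog1-1 rab8d-2 replicate 3, replicate 2 labelled nac044-1 rab8d-2, or all 3 so labelled (adjusted p = 0.0469), and also under relative log expression scaling (0.11, adjusted p = 0.0293) and with no filter on low counts (adjusted p = 0.0486). For ASFT the difference was -0.02 ± 0.03, and for CYP86A1 it was -0.02 ± 0.04.

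Several members sit near a mutated gene, and differences carried along with an allele were not tested. ABCG6 is separated from NAC085 on chromosome 5 by 94 protein-coding genes in the RefSeq order. FAR4 and FAR5 are next to each other on chromosome 3 with ATM 388 genes beyond FAR5, and ABCG20 is 572 genes from ATM. No library gave any of the 10 genes a fractional count, and how reads shared by similar copies such as FAR4 and FAR5 were assigned was not tested.

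The order of genotypes was similar for most of the genes but not for all. WT was highest for 7, nac085-1 rab8d-2 for 2 and atm-2 rab8d-2 for 1; the samples labelled nac044-1 rab8d-2 were lowest for 6, rab8d-2 for 3 and WT for 1, FAR1. Neighbours in that order often overlapped. The libraries of rab8d-2 and those labelled nac044-1 rab8d-2 overlapped for GPAT5, FAR4, CYP86B1, ABCG2, ABCG6 and ABCG20, and those of nac085-1 rab8d-2 and atm-2 rab8d-2 for GPAT5, FAR5, ASFT, CYP86A1, ABCG2 and ABCG6. The libraries of sog1-1 rab8d-2 overlapped those of rab8d-2 for FAR4 and ABCG2, and those of atm-2 rab8d-2 overlapped WT for FAR5. For FAR1, sog1-1 rab8d-2 overlapped both WT and the samples labelled nac044-1 rab8d-2. Over the pairs of genotypes named here, 50.9% to 70.4% of all genes tested had libraries wholly apart by normalised counts.

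Across the 18 libraries, which share 6 genotypes and so hold few independent levels, Pearson's r of log2 normalised counts between pairs of the 10 genes is given as a description. It ran from -0.13 to 0.99 over 45 pairs, with a median of 0.85. GPAT5 and ABCG6 had an r of 0.99, as did FAR4 and ABCG20. The 9 pairs with FAR1 had a median of 0.14 and reached at most 0.55, with ASFT and with ABCG2. The 36 pairs without FAR1 lay between 0.44 and 0.99, the lowest being GPAT5 with ASFT.

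**Figure D3:**
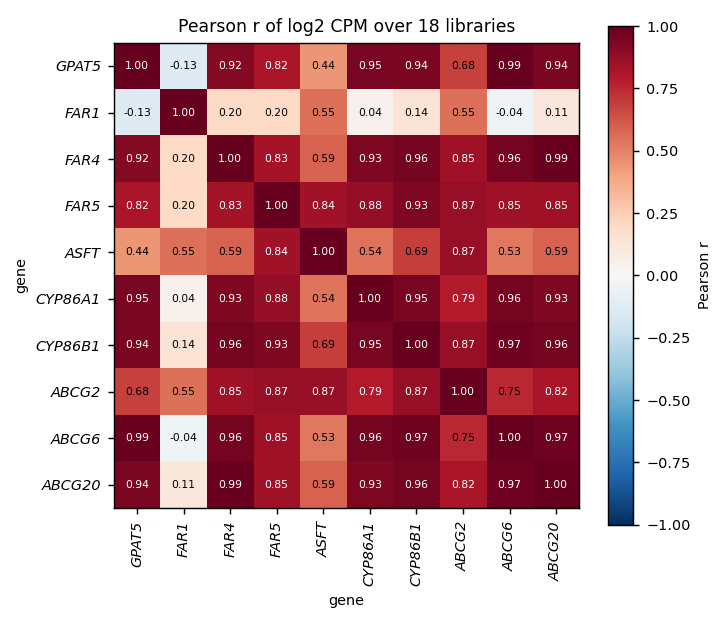
Pearson's r of log2 normalised counts between each pair of the 10 genes (both axes) over 18 libraries, from blue (-1) to red (1). FAR1 is the pale row and column, at -0.13 to 0.55, and ASFT is paler than the rest against GPAT5 (0.44).

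Transcription factors of suberin formation also changed. Of 10 such regulators, 8 fell and 1 rose in rab8d-2 against WT (median -0.66), where 32.9% of all genes fell and 31.7% rose. All 10 rose in atm-2 rab8d-2 over rab8d-2 (median 0.82) and in nac085-1 rab8d-2 (0.87), 7 rose and none fell in sog1-1 rab8d-2 (0.39), and 4 fell and none rose in the samples labelled nac044-1 rab8d-2 (-0.18). Over rab8d-2, 24.3% to 31.8% of all genes rose in the double mutants and 18.6% to 31.7% fell. The same shares apply to the lists that follow. MYB9, an activator of suberin genes known from seed coats, averaged 22.3 ± 0.445 TPM in atm-2 rab8d-2, 8.89 ± 1.27 in sog1-1 rab8d-2, 8.62 ± 0.288 in the samples labelled nac044-1 rab8d-2, 20.7 ± 1.47 in nac085-1 rab8d-2, 8.57 ± 0.541 in rab8d-2 and 26.8 ± 0.281 in WT (SD, n = 3 each). It fell by more than any other regulator in rab8d-2 (-1.70 ± 0.07, adjusted p = 1.51e-25) and was not called in sog1-1 rab8d-2 against rab8d-2 (0.12 ± 0.09, adjusted p = 0.247).

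MYB39, also known as SUBERMAN, and MYB93, which is expressed in the endodermis over lateral root primordia, fell in rab8d-2 (-1.01 ± 0.10 and -0.86 ± 0.07). Both rose in atm-2 rab8d-2 over rab8d-2 (0.77 ± 0.10 and 0.73 ± 0.08) and in nac085-1 rab8d-2 (0.69 ± 0.10 and 1.16 ± 0.07). NAC058 was the 1 regulator that rose in rab8d-2 (0.53 ± 0.07). It averaged 46.6 ± 3.09 TPM in atm-2 rab8d-2, 42.3 ± 1.26 in sog1-1 rab8d-2, 18.4 ± 1.07 in the samples labelled nac044-1 rab8d-2, 43.9 ± 1.79 in nac085-1 rab8d-2, 24.1 ± 1.33 in rab8d-2 and 16.1 ± 0.437 in WT. It rose over rab8d-2 in the other double mutants and fell in the samples labelled nac044-1 rab8d-2 (-0.38 ± 0.07, adjusted p = 3.4e-06).

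Other genes of suberin synthesis and export, 11 in the list, followed with exceptions: 9 fell and 1 rose in rab8d-2 against WT (median -1.28). KCS2, an elongase of very long chains, averaged 21.6 ± 1.51 TPM in rab8d-2, against 74.1 ± 0.772 TPM in WT (-1.83 ± 0.05, adjusted p = 7.9e-33). LACS2, an acyl-CoA synthetase, and ABCG16, another half-transporter, fell by similar amounts (-1.77 ± 0.05 and -1.62 ± 0.04). ABCG1, a transporter linked to root suberin, was the exception, with 30.0 ± 0.320 TPM in rab8d-2, against 9.05 ± 0.585 TPM in WT (1.67 ± 0.06, adjusted p = 1.58e-28). ABCG1 was lower in each double mutant than in rab8d-2, with log2 fold changes of -0.28 in the samples labelled nac044-1 rab8d-2 to -0.93 in atm-2 rab8d-2. Over rab8d-2, 8 of the 11 rose and 1 fell in atm-2 rab8d-2 and again in nac085-1 rab8d-2, 7 rose and 3 fell in sog1-1 rab8d-2, and 3 rose and 4 fell in the samples labelled nac044-1 rab8d-2.

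Of 12 phenylpropanoid genes, which make the ferulate that ASFT transfers, 10 fell and 2 rose in rab8d-2 against WT, by less than the suberin genes (median -0.32). PAL4, a phenylalanine ammonia-lyase, fell most of the 12 (-1.27 ± 0.04), and PAL1 fell by less (-0.67 ± 0.02). Over rab8d-2, 11 of 12 rose and none fell in atm-2 rab8d-2 (median 0.69), sog1-1 rab8d-2 (0.51) and nac085-1 rab8d-2 (0.43). Set against WT, 10 were higher and 1 lower in atm-2 rab8d-2, 9 higher and 3 lower in sog1-1 rab8d-2, and 7 higher and 4 lower in nac085-1 rab8d-2. In the samples labelled nac044-1 rab8d-2, 5 were higher and 2 lower than in rab8d-2, and 1 was higher and 8 lower than in WT. Against WT, 28.8% to 35.1% of all genes were higher in the double mutants and 28.8% to 33.5% lower. The 3 fatty acid elongase genes KCR1, PAS2 and CER10 fell slightly in rab8d-2 (-0.30 to -0.40).

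Abscisic acid genes were mixed. Of 9 genes, 7 passed the filter, and 5 of these fell and 1 rose in rab8d-2 against WT (median -0.73). NCED3, which makes the precursor of the hormone, averaged 1.70 ± 0.270 TPM in rab8d-2, against 11.0 ± 0.238 TPM in WT (-2.74 ± 0.10, adjusted p = 3.64e-28). It averaged 1.38 ± 0.100 TPM in atm-2 rab8d-2 and 1.77 ± 0.254 TPM in nac085-1 rab8d-2, and was not called against rab8d-2 in either (-0.29 ± 0.15 and 0.06 ± 0.15). It was higher than rab8d-2 in sog1-1 rab8d-2, at 2.17 ± 0.187 TPM (0.43 ± 0.14, adjusted p = 0.00806). The phosphatase HAI1, which is induced by the hormone, also fell in rab8d-2 (-1.74 ± 0.08), and the transcription factor ABI5 rose (1.43 ± 0.13). Over rab8d-2, 5 of the 7 rose and 1 fell in atm-2 rab8d-2, 6 rose and 1 fell in sog1-1 rab8d-2, 4 rose and 1 fell in the samples labelled nac044-1 rab8d-2, and 3 rose and 2 fell in nac085-1 rab8d-2. In that last comparison 31.8% of all genes rose and 31.7% fell. ABI5 was the gene that fell in atm-2 rab8d-2 and sog1-1 rab8d-2 (-1.63 ± 0.13 and -1.50 ± 0.13). RAB18, an abscisic acid marker gene, was higher than rab8d-2 in all 4 double mutants at few counts: 113 over the 3 libraries in atm-2 rab8d-2, 21 in sog1-1 rab8d-2, 18 in the samples labelled nac044-1 rab8d-2 and 58 in nac085-1 rab8d-2, against 4 in rab8d-2 (highest adjusted p = 0.0140).

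Markers of the endodermis moved with the suberin genes in some comparisons and apart from them in others, and their part in the results was not tested. Of 10 markers, 9 fell and SCR rose in rab8d-2 against WT (median -0.58), among them ESB1, a gene of Casparian strip formation (-0.71 ± 0.03). Their summed level was 605.2 to 614.8 TPM in rab8d-2 libraries, against 841.7 to 881.5 TPM in WT libraries. In sog1-1 rab8d-2 the sum was 875.4 to 885.8 TPM, and 5 markers were higher than WT and 1 lower (median 0.11), while 8 of the 10 suberin genes were lower than WT (median -1.08). In atm-2 rab8d-2 the sum was 808.0 to 867.9 TPM, and in nac085-1 rab8d-2 818.0 to 869.9 TPM. The samples labelled nac044-1 rab8d-2 had 651.0 to 700.3 TPM.

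Markers of other root cells also moved. All 6 xylem markers fell in rab8d-2 against WT (median -0.94), with sums of 241.4 to 242.1 TPM in rab8d-2 and 410.9 to 427.1 TPM in WT. In the samples labelled nac044-1 rab8d-2 the xylem sum was 384.9 to 393.1 TPM and 5 of 6 markers were higher than in rab8d-2 (median 0.71), while 7 of the 10 suberin genes were not called. Phloem markers summed to 43.6 to 46.3 TPM in rab8d-2, against 90.9 to 93.4 TPM in WT, and root hair markers to 252.9 to 276.2 TPM in rab8d-2, against 393.5 to 419.3 TPM in WT. Phloem sums were 48.9 to 51.4 TPM in atm-2 rab8d-2 and 61.1 to 65.4 TPM in sog1-1 rab8d-2. They were 69.8 to 73.0 TPM in the samples labelled nac044-1 rab8d-2 and 87.0 to 87.4 TPM in nac085-1 rab8d-2. Root hair sums, in the same order of genotypes, were 342.5 to 391.0, 366.6 to 407.1, 266.5 to 296.1 and 349.7 to 402.5 TPM. Meristem markers went the other way in rab8d-2 against WT. Of the 3 tested, PLT2 and WOX5 rose in rab8d-2 against WT (0.98 ± 0.12 and 2.05 ± 0.16) and PLT1 was not called. Their sum was 40.6 to 43.5 TPM in atm-2 rab8d-2, 17.7 to 20.2 TPM in sog1-1 rab8d-2, 16.2 to 17.5 TPM in the samples labelled nac044-1 rab8d-2, 41.7 to 43.4 TPM in nac085-1 rab8d-2, 21.9 to 23.3 TPM in rab8d-2 and at most 12.8 TPM in WT. WOX5, a gene of the quiescent centre, was higher than rab8d-2 in atm-2 rab8d-2 and nac085-1 rab8d-2 (1.67 ± 0.09 and 1.74 ± 0.09), where 9 and 10 of the 10 suberin genes rose, and lower in the samples labelled nac044-1 rab8d-2 (-0.64 ± 0.13). PLT1 and PLT2 were not called over rab8d-2 in atm-2 rab8d-2 (-0.04 and 0.19) or in nac085-1 rab8d-2 (-0.00 and -0.08). Both were lower than rab8d-2 in sog1-1 rab8d-2 (-0.42 ± 0.09 and -0.30 ± 0.10). In the samples labelled nac044-1 rab8d-2, PLT2 was lower (-0.57 ± 0.11) and PLT1 was not called (-0.13 ± 0.08). In sog1-1 rab8d-2, where 8 of the 10 suberin genes rose, WOX5 was not called over rab8d-2 (0.02 ± 0.11).

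Clock genes that peak around dawn summed to 86.1 to 88.9 TPM in atm-2 rab8d-2 and 57.3 to 61.8 TPM in sog1-1 rab8d-2, against 10.9 to 11.9 TPM in rab8d-2 and 14.8 to 16.1 TPM in WT. Their sum was 19.2 to 20.6 TPM in nac085-1 rab8d-2 and 14.5 to 16.7 TPM in the samples labelled nac044-1 rab8d-2. The part of these markers and clock genes, and of any difference in sampling time, in the suberin results was not tested.

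**Figure D4:**
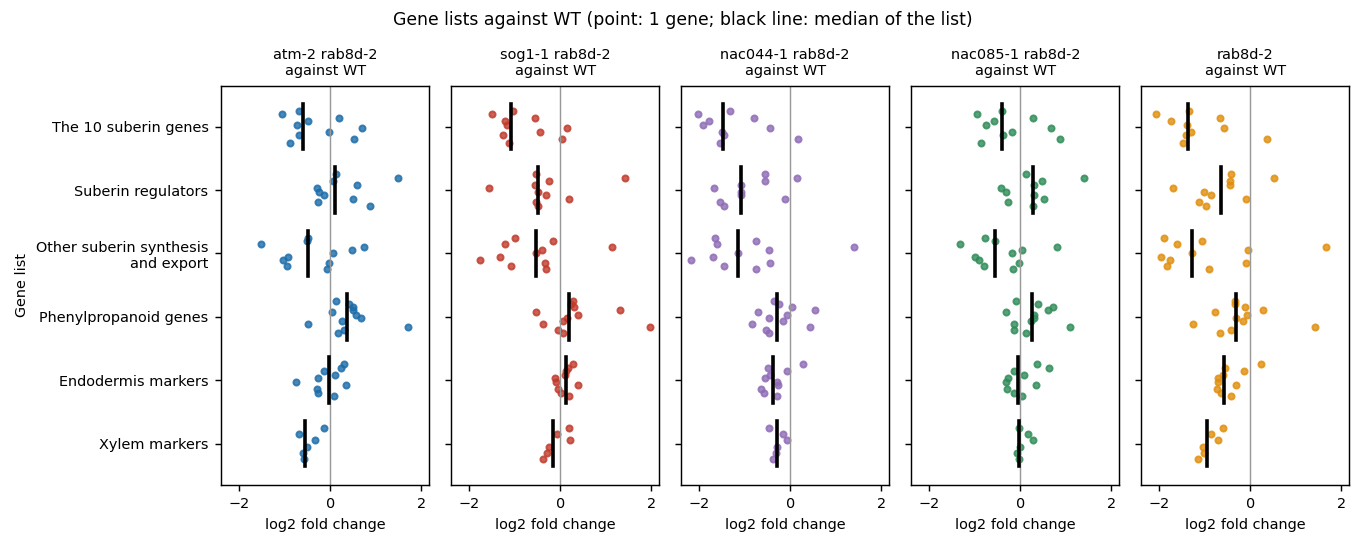
Log2 fold change against WT (horizontal axis) of each gene (points) of 6 lists in the 4 double mutants and rab8d-2, with the median of the list (black line). In sog1-1 rab8d-2 the median of the 10 suberin genes is at -1.08 and that of the endodermis markers at 0.11.

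Relatives of the 10 genes that are known mainly from shoot cutin, wax or flowers were also measured. Of 12 listed, 8 passed the filter. In rab8d-2 against WT 6 fell and 2 rose (median -0.85). GPAT4 and GPAT6, which make cutin monomers, fell (-0.99 ± 0.04 and -1.08 ± 0.06), as did CYP86A2 (-0.80 ± 0.04), while CYP86A4 rose (1.34 ± 0.09). Among the other reductases, FAR3, the wax alcohol enzyme also called CER4, fell in rab8d-2 (-0.91 ± 0.11) and rose in atm-2 rab8d-2 and sog1-1 rab8d-2 over rab8d-2 (1.91 ± 0.09 and 1.98 ± 0.09). FAR2, known from pollen, had 28 counts in all rab8d-2 libraries, against 67 in WT (-1.31 ± 0.34, adjusted p = 0.000887). That call rests on few counts, 1 to 24 in a library with a median of 6.5. FAR6 and FAR8 had too few counts to be tested, and FAR7 was not among the genes of the deposited table.

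The genes most like the mean pattern of the 10 were found by Pearson's r over the 18 libraries among 17664 genes. They were PDLP4 (0.98), the cupredoxin AT5G07475 (0.97), the receptor-like kinase CRK25 (0.97), the protein kinase AT1G61590 (0.97), AT3G23510 (0.97), annotated as a cyclopropane fatty acid synthase, the RING protein AT4G13100 (0.96), the cytochrome P450 CYP71B37 (0.96) and the GDSL lipase AT4G26790 (0.96). PDLP4 had 3.28 TPM in rab8d-2 and 8.91 TPM in WT on average, and AT5G07475 had 20.9 TPM in rab8d-2 and 79.0 TPM in WT.

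For single members, the most similar gene was NEK2 for GPAT5 (0.98), AT2G28660 for FAR1 (0.95), the transporter gene ABCG23 for FAR4 (0.99) and ABCG20 (0.98), AT4G36610 for FAR5 (0.98) and the cinnamate hydroxylase C4H for ASFT (0.99). It was AT4G24140 for CYP86A1 (0.99), the GDSL lipase AT1G74460 for CYP86B1 (0.98), the acyltransferase BAT1 for ABCG2 (0.97) and the peroxidase AT1G68850 for ABCG6 (0.99). AT2G28660, like FAR1, was higher in rab8d-2 than in WT, at 22.2 TPM in rab8d-2 and 14.2 TPM in WT. C4H changed less than ASFT in size, at 0.42 in atm-2 rab8d-2 over rab8d-2, where ASFT changed by 1.28.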

How the data were processed

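Per the labels' protocols, poly(A) RNA was selected on oligo(dT) beads from roots. Expected counts, which the authors estimated with RSEM 1.3.1 per the submitters' processing notes, were deposited for 25537 genes. The authors also deposited TPM, used for levels only, and FPKM, relative to transcript length and library size and not used. Which aligner, build and strand setting lay behind them is not given in the sources used here.

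The expected counts (20103600 to 20471200 per library; 1.56% to 1.75% of values with decimals) were rounded, and differences were tested with edgeR 4.0.16 (R 4.3.3). Factors from TMM were 0.970 to 1.02, the tool's low count filter left 19981 genes, and 1 quasi-likelihood model of all 18 libraries gave 15 comparisons. P values were adjusted by Benjamini-Hochberg over all genes within a comparison, and a gene is called at an adjusted p under 0.05. ± after a log2 fold change is its SE. Counts of 132 to 6877 lay behind the 10 genes. The biological coefficient of variation was 2.38%, and p-values measure only the spread among these samples, since nothing says that the plants were grown separately. Libraries sharing a genotype, taken in pairs, differed by more than counting noise (chi-square per gene 1.31 to 2.13), so none was dropped as a copy. That excess does not show that the libraries came from separately grown plants rather than from 1 pooled sample.

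Alternatives were relative log expression and upper quartile scaling, no filter, a replicate block, DESeq2 1.42.0, 2 genotypes only, a threshold of 0.01, and leaving out each library. Omitting the 3 samples labelled nac044-1 rab8d-2 was chosen after seeing the data. The method was tested on simulated data in which few genes changed and all genes had the same spread. That test does not cover data in which as many genes change as here.

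The members and gene lists were chosen with earlier results of these data known. Named genes are the 10 members, the mutated genes, up to 4 per list (lowest p, rab8d-2 against WT), the other FAR genes, and the genes most like the members; the genes named only as the ends of a range, SCR and RAB18 were chosen after their values were seen. Promoter sequences came from RefSeq TAIR10.1.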

Additional observations from a re-analysis of the deposited data

Results flagged for a closer look

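Several changes over rab8d-2 went in opposite directions in 2 double mutants, with every library of each on its own side, and the double mutants were then tested against each other with edgeR's quasi-likelihood test and Benjamini-Hochberg adjustment. FAR1 rose in nac085-1 rab8d-2 (0.51 over rab8d-2) and fell in sog1-1 rab8d-2 (-0.32). The difference of nac085-1 rab8d-2 over sog1-1 rab8d-2 was 0.84 (adjusted p = 1.43e-11), with 3 of 3 libraries higher.

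FAR5 was lower than rab8d-2 in the samples labelled nac044-1 rab8d-2 (-0.20, a call lost with DESeq2, adjusted p = 0.0613) and higher in the other double mutants. The difference of the samples labelled nac044-1 rab8d-2 was -1.48 over atm-2 rab8d-2 and -1.07 over sog1-1 rab8d-2, and that of nac085-1 rab8d-2 over these samples was 1.34 (highest adjusted p = 4.7e-19). CYP86A1 was lower than rab8d-2 in the samples labelled nac044-1 rab8d-2 (-0.53) and higher in the others. Its differences were -1.19 over atm-2 rab8d-2 and -0.75 over sog1-1 rab8d-2, and 1.17 for nac085-1 rab8d-2 over the samples labelled nac044-1 rab8d-2 (highest adjusted p = 2.39e-19). These 6 values for FAR5 and CYP86A1 rest on the samples whose NAC044 RNA goes against their label.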

How the results depend on the processing

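Of 3850 values of the 10 genes under alternatives, 3815 kept their call and direction, 16 became called, 19 lost their call and none reversed. The members lower in the samples labelled nac044-1 rab8d-2 than in rab8d-2 numbered 2 in the reported model, 4 under upper quartile scaling, 1 with DESeq2, 1 at an adjusted p under 0.01, and 1 to 3 when a library was left out. Against WT, 0 to 1 members were higher in these libraries when a library was left out. In nac085-1 rab8d-2 against atm-2 rab8d-2 the members lower numbered 1 in the reported model, 2 under upper quartile scaling, 0 with DESeq2, 0 at an adjusted p under 0.01, and 0 to 1 when a library was left out. The stricter threshold can only keep or lower these counts. For the left-out libraries, the scaling and DESeq2, the cause of the change was not tested. FAR4 in sog1-1 rab8d-2 against rab8d-2 also lost its call under upper quartile scaling, without the filter and with 2 genotypes only. Replicate numbers did not pair libraries across genotypes: the correlations of same-numbered deviations were -0.07 to 0.04, and 4 of 18 libraries correlated best with their own number. A fit with the replicate block changed 1 call, ABCG6 in nac085-1 rab8d-2 against atm-2 rab8d-2 (0.10, adjusted p = 0.0378, against 0.0513 without the block). FAR1 had the fewest counts of the 10 genes, 132 to 287 in a library.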
